A study of Mus musculus with 13 samples.

Results

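The mark H3K27ac, acetylation of histone H3 at lysine 27, was examined around Ryr1 and Cacna1s, the genes of both calcium channels of excitation-contraction coupling in skeletal muscle. Members were all peaks of the 12 deposited lists that lay wholly inside fixed windows on the mouse build mm9. The Ryr1 window spanned 155 kb, chr7:29775000-29930000, and the Cacna1s window 100 kb, chr1:137930000-138030000. They held 136 of 1117291 peaks, 54 at Ryr1 and 82 at Cacna1s. Overlapping peaks of the 12 lists merged into 28 regions, 11 at Ryr1 and 17 at Cacna1s, of 211369 in all.

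Cacna1s encodes the pore-forming subunit of Cav1.1, the voltage sensor of the transverse tubule membrane. Ryr1 encodes the ryanodine receptor, the calcium release channel of the sarcoplasmic reticulum. On depolarisation of the muscle fibre Cav1.1 opens the ryanodine receptor by direct coupling, and the calcium released starts contraction. H3K27ac marks active promoters and enhancers, so its peaks show where a locus carries active chromatin, not how much transcript is made.

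The cells were C2C12, mouse myoblasts that fuse into myotubes when serum is lowered. Wild-type cells were taken at -24 h in growth medium, at 0 h, when differentiation medium was given, and at 6, 12, 24, 48 and 72 h. A further 5 lines, edited with CRISPR/Cas9, were taken at 48 h: Myod1_KO, in which expression of MyoD, the transcription factor that drives muscle differentiation, was knocked out; H1_KO and H3_KO, each with 1 deleted region that the submitters call a hotspot; H23_KO, made by deleting H3 in an H2_KO line; and H34_KO, made by deleting H3 in an H4_KO line. Thus H3_KO, H23_KO and H34_KO share the loss of H3, but H23_KO and H34_KO were not made from the H3_KO line. Where the hotspots lie is not given in the sources used here. Each condition had 1 library, so no test between conditions was possible, and every value below describes single libraries; a deletion and other differences of its line cannot be told apart. The wild-type 48 h library was the reference, since the sample labelled CRISPR control was not analysed here.

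No mm9 gene annotation was used here, so peaks were described by position and not assigned to a promoter or a gene body, and neither the windows nor the C2C12 identity was checked against genes. In the RefSeq gene table of GRCm38.p6 the protein-coding neighbours are Map4k1 and Rasgrp4 for Ryr1 and Ascl5 and Kif21b for Cacna1s. Peaks near a window's edge may therefore belong to a neighbour. In the same assembly Ryr1 lies on the minus strand and Cacna1s on the plus strand. If that orientation holds in mm9, Ryr1 starts towards the high end of its window and Cacna1s towards the low end.

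The 250 bases before each gene's RefSeq start are shown because each window held a block without a wild-type peak before 24 h towards the side at which the gene would start. They come from RefSeq on GRCm38.p6 and were not placed on mm9. The capitals mark CANNTG, the E-box core that MyoD and related factors bind, on either strand.
Ryr1, chr7:29125152-29125401, minus strand: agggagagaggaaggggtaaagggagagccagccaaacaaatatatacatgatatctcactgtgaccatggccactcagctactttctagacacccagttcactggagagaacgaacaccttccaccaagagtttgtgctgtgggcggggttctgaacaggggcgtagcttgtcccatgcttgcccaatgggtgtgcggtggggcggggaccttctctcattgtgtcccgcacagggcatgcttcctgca
Cacna1s, chr1:136052561-136052810, plus strand: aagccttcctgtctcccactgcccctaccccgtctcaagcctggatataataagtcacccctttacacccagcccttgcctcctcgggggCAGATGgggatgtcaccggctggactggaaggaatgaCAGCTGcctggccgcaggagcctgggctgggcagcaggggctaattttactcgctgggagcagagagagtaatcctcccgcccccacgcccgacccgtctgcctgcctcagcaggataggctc
The Cacna1s stretch held 2 matches to CANNTG, beginning 160 and 123 bases before the start. The nearer match read CAGCTG. The Ryr1 stretch held no CANNTG. Over the same length, 66.0% of 27025 RefSeq promoters held CANNTG and 12.8% held its variant CAGCTG. A core that FoxO factors bind, GTAAACA, was searched on both strands as well; neither stretch held it, and 3.09% of promoters did. A match is a description of these letters and not evidence of binding.

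Both windows had a peak in every library, so the first time with a peak was -24 h for each. At Cacna1s the peaks at -24, 0 and 6 h all lay towards the high edge of the window. That edge is next to Kif21b in gene order, so they may belong to that neighbour. In the Ryr1 window the wild-type libraries from -24 to 72 h, in order of time, had 2, 1, 2, 8, 4, 3 and 4 peaks. These covered 285, 229, 632, 1989, 603, 1608 and 949 bases. Coverage was thus lowest at 0 h and highest at 12 h, the longest list of the time course with 101331 peaks. In the Cacna1s window there were 4, 6, 5, 7, 5, 6 and 7 peaks in the same order, which covered 1080, 1511, 1468, 3096, 947, 3433 and 2148 bases. Coverage was lowest at 24 h and highest at 48 h. Among wild-type libraries the peaks inside each window had their widest median at 48 h, 437 bases at Cacna1s and 431 at Ryr1. Peaks were wide in the whole 48 h list, where 71281 peaks covered 45.4 Mb. At 24 h 80069 peaks covered 24.5 Mb, and at 72 h 69251 covered 24.9 Mb. The 48 h list also came in a different format from the other wild-type lists. The wider medians thus cannot be read as particular to these windows, and covered bases per block at 48 h carry the same limit.

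Lists differ in length, so coverage was also taken per Mb of all peaks in the list. By this measure the Ryr1 values, again in order of time, were 10.6, 6.56, 18.1, 48.1, 24.6, 35.4 and 38.1 bases per Mb. Those of Cacna1s were 40.3, 43.3, 41.9, 74.9, 38.6, 75.6 and 86.3. Relative to its list, each gene's window was therefore better covered at 48 and 72 h than at -24, 0 and 6 h, and the 12 h value was near the 48 h one at Cacna1s and above it at Ryr1. The course was not a steady rise. At 24 h both windows fell below their 12 h value, and Cacna1s had its lowest value of the course, 38.6. With the 55585 strongest peaks of each list, Ryr1 had no peak at 0 h. Whether list length accounts for part of these differences was not tested. Cacna1s had the larger percentage of its window covered in 11 of 12 libraries, the H3_KO library being the exception. These percentages include the peaks at the edge next to Kif21b.

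The wild-type 48 h peaks were also compared with the other times by overlap. At Ryr1 none of the 3 overlapped a peak of the -24, 0, 6 or 12 h library, and 1 each overlapped a peak of the 24 and 72 h libraries. At Cacna1s the numbers were 2, 1, 1, 3, 2 and 4 of the 6 for the -24, 0, 6, 12, 24 and 72 h libraries. Of all wild-type 48 h peaks, 51.1% overlapped a peak at -24 h, and the shares for 0, 6, 12, 24 and 72 h were 58.2%, 59.1%, 62.9%, 52.7% and 49.2%. The counts lay below these shares at every time in both windows, except Cacna1s at 72 h, where 4 of 6 made 66.7%. With so few peaks the 95% Wilson intervals, which cover counting error only, were wide. At Ryr1 a count of 0 of 3 had an interval of 0.0 to 56.1%, and 1 of 3 one of 6.15 to 79.2%. At Cacna1s it was 9.68 to 70.0% for 2 of 6, 3.01 to 56.4% for 1 of 6, 18.8 to 81.2% for 3 of 6 and 30.0 to 90.3% for 4 of 6. The share of all peaks lay inside both intervals at -24, 24 and 72 h, above both at 0 and 6 h, and above that of Ryr1 alone at 12 h. Neighbouring peaks of 1 library are not independent, so this is a description and not a test.

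The number of peaks was set against the rest of the genome. Among 17008 consecutive stretches of 155 kb along the genome, 60.9% had fewer peaks than Ryr1 in the wild-type 48 h list, and 47.7% had none. Among 26368 stretches of 100 kb, 82.4% had fewer than Cacna1s, and 54.7% had none. Each window also held a long stretch without a peak in any library, 78.9 kb at Ryr1 and 51.0 kb at Cacna1s. Such a stretch or a longer one occurred in 59.2% and 65.8% of the stretches of the same length.

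Regions closer than 5 kb were grouped into blocks, 5 at Ryr1 and 4 at Cacna1s, numbered from the low coordinate end; the distance was chosen after the data were seen.

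**Figure D1:**
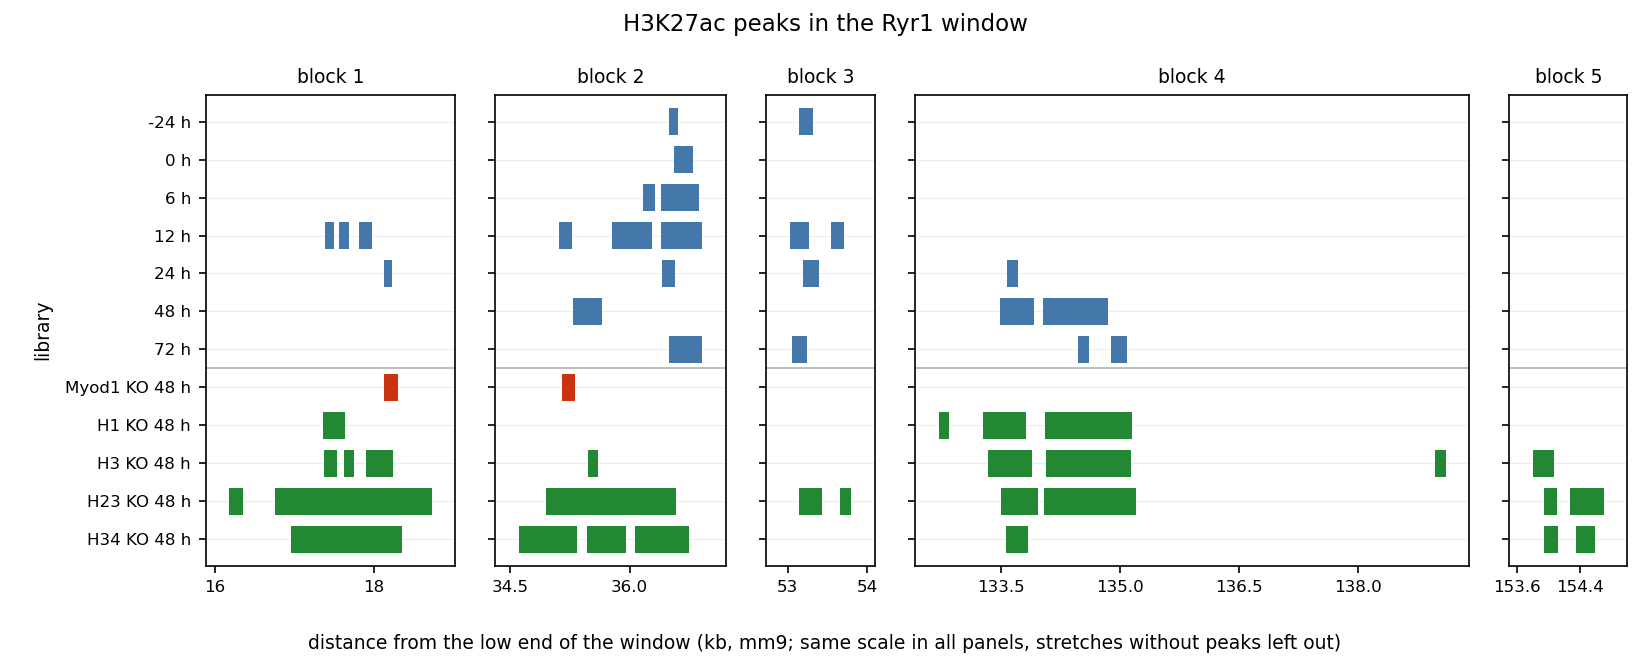
Peaks of the 12 libraries (rows) in the 5 blocks of the Ryr1 window, by distance from its low end in kb; bars are peaks, blue for wild type, red for Myod1_KO and green for the hotspot lines. Block 4 is empty at -24, 0, 6 and 12 h and in Myod1_KO, and filled in wild-type cells from 24 h and in the 4 hotspot lines.

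At Ryr1, the block first marked in wild-type cells at 24 h was block 4, chr7:29907715-29914104, towards the high end of the window. This block had no peak at -24, 0, 6 and 12 h. It had 1 peak covering 140 bases at 24 h, 2 covering 1243 at 48 h and 2 covering 342 at 72 h. In Myod1_KO it had none. In the hotspot lines it had 3 peaks covering 1775 bases in H1_KO, 3 covering 1758 in H3_KO, 2 covering 1626 in H23_KO and 1 covering 279 in H34_KO. Coverage was thus above wild type in 3 hotspot lines and below it in H34_KO. With the 55585 strongest peaks of each list the block had no peak at 24 h or in H34_KO, covered 140 bases at 72 h, and kept 1243 bases at 48 h and 1623 to 1645 in the other hotspot lines.

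Block 4 held both strong wild-type 48 h peaks of the window. The peak at chr7:29908484-29908914 had a fold enrichment of 10.6 and a −log10 p of 25.3, both the authors' own values, and ranked above 78.2% of the peaks in its list. Its region, chr7:29908272-29908965, had a peak at 24 and 48 h, none at 72 h, and a peak in all 4 hotspot lines. The 24 h peak was weak, above 0.797% of its list, and in H34_KO the peak ranked above 37.4% of the list, against 92.6% in H1_KO, 87.7% in H3_KO and 79.5% in H23_KO within their own lists. The highest summits of this region in the 5 libraries at 48 h that had a peak lay within 110 bases of each other.

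The neighbouring peak, chr7:29909038-29909849, was the widest wild-type 48 h peak of the window, at 812 bases, with a fold of 9.89. Its region, chr7:29909038-29910207, was marked at 48 and 72 h but not earlier. H1_KO, H3_KO and H23_KO each had a single peak there, of 1102, 1067 and 1164 bases. H34_KO and Myod1_KO had none. A first peak at 48 h that was still present at 72 h was found in 0.791% of all regions of the 7 wild-type lists.

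Block 2, chr7:29809610-29811916, was the part of the Ryr1 window marked throughout. It had a peak in all 7 wild-type libraries and in 4 of the 5 edited lines, H1_KO being the line without. The wild-type peaks did not sit at the same place. At -24, 0, 6, 24 and 72 h they lay between 29811165 and 29811912, whereas the 48 h peak lay at chr7:29810291-29810655 and overlapped no other wild-type peak. This 48 h peak was weak, with a −log10 p of 8.0 and a rank above 16.9% of its list. The peak of Myod1_KO, chr7:29810143-29810306, overlapped it by 16 bases. Coverage was greatest in H34_KO, at 1885 bases, and H23_KO, at 1635, against 365 in wild-type cells at 48 h. With equal numbers of strongest peaks the 0 h, 48 h and H3_KO libraries had no peak in the block.

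Blocks 1 and 5 held no wild-type 48 h peak. Block 1, chr7:29791182-29793727, had wild-type peaks at 12 h, covering 394 bases, and at 24 h, covering 100, and a peak in all 5 edited lines. Coverage there was 176 bases in Myod1_KO, 273 in H1_KO, 627 in H3_KO, 1393 in H34_KO and 2147 in H23_KO. The H23_KO peak, chr7:29791750-29793727, was the widest of the window in any library, at 1978 bases, with a fold of 16.9. With equal numbers of strongest peaks neither a wild-type peak nor that of H1_KO was left in block 1. H3_KO then covered 332 bases, Myod1_KO 176, H34_KO 1393 and H23_KO 1978. Block 5, chr7:29928809-29929696, at the edge next to Rasgrp4 in gene order, had peaks in H3_KO, H23_KO and H34_KO and in no other library. They covered 256, 596 and 409 bases, had folds of 3.44 to 5.51, and ranked above 5.56% to 51.3% of their own lists. None was left with equal numbers of strongest peaks. Block 3, chr7:29828029-29828793, had peaks at -24, 12, 24 and 72 h and in H23_KO.

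**Figure D2:**
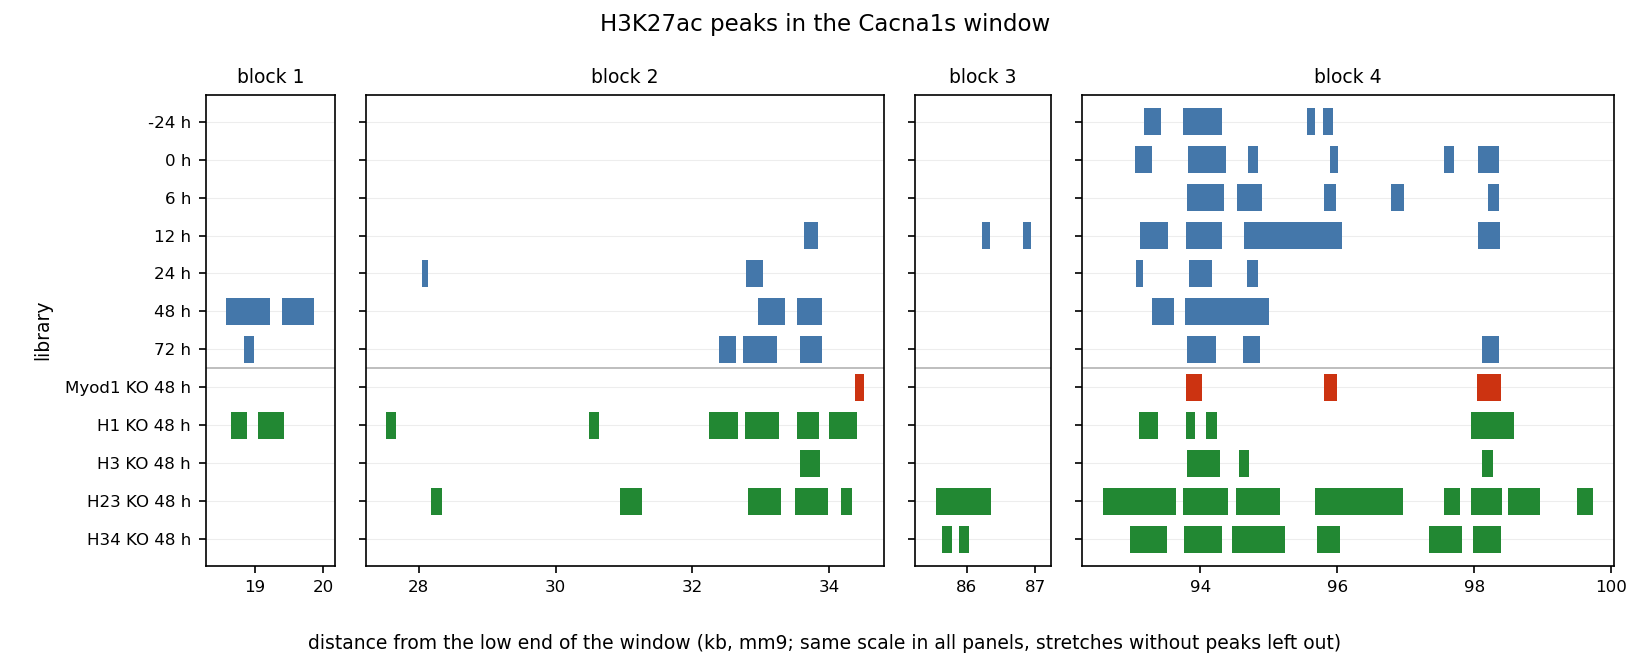
Peaks of the 12 libraries (rows) in the 4 blocks of the Cacna1s window, by distance from its low end in kb; bars are peaks, coloured as for Ryr1. Block 1 is filled in wild-type cells at 48 and 72 h and in H1_KO alone, and block 4 is filled in all 12 libraries.

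At Cacna1s, block 1, chr1:137948581-137949868, was marked in 3 of the 12 libraries. It lay towards the low end of the window. It had no peak at -24, 0, 6, 12 and 24 h, 2 peaks covering 1125 bases at 48 h and 1 covering 140 bases at 72 h. Among the edited lines H1_KO had 2 peaks covering 619 bases, and Myod1_KO, H3_KO, H23_KO and H34_KO had none. The wild-type 48 h peaks, chr1:137948581-137949225 and chr1:137949389-137949868, had widths of 645 and 480 bases. Both had a fold of 5.65 and a −log10 p of 9.86, which ranked above 32.8% of the list, so they were among the weaker peaks.

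Of all regions with a 48 h wild-type peak, 5.14% shared this pattern of a peak in H1_KO but in no line that lacks H3. Regions first marked at 48 h and still marked at 72 h numbered 866 over the 12 lists. Of these, 86.6% had no peak in Myod1_KO, and 15.7% had a peak in H1_KO and none in the other 4 edited lines. The absence from Myod1_KO of the late regions at Ryr1 and Cacna1s was thus shared by most regions with this time course.

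Block 2, chr1:137957525-137964501, filled from 12 h on. It had no peak at -24, 0 and 6 h, and then covered 195, 355, 758 and 1070 bases at 12, 24, 48 and 72 h. In the edited lines it covered 125 bases in Myod1_KO, 1936 in H1_KO, 289 in H3_KO and 1599 in H23_KO, and H34_KO had no peak. Thus H1_KO and H23_KO lay above wild-type 48 h cells and the other 3 lines below. With equal numbers of strongest peaks H23_KO had no peak in the block and so lay below, while wild-type 48 h cells kept 758 bases, H1_KO covered 1327 and H3_KO kept 289. The block held the single late-gained region of both windows, chr1:137962732-137963353, marked at 24, 48 and 72 h but not at -24 or 0 h. This class held 1.1% of all wild-type regions. H1_KO and H23_KO had a peak in it, and Myod1_KO, H3_KO and H34_KO had none. Its 48 h peak, chr1:137962960-137963353, was the strongest wild-type 48 h peak of the window, with a fold of 8.02 and a −log10 p of 17.4.

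The adjoining region, chr1:137963498-137963975, first had a peak at 12 h, had none at 24 h, and had peaks at 48 and 72 h. It was the sole region of blocks 1 and 2 with a peak in H3_KO, where its peak ranked above 63.9% of the list with a fold of 7.54. The 4 summits at 48 h lay within 114 bases. The Myod1_KO peak of block 2, chr1:137964377-137964501, was 125 bases wide and overlapped no wild-type peak.

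Block 4, chr1:138022571-138029737, at the edge next to Kif21b in gene order, was marked in all 12 libraries; with equal numbers of strongest peaks H1_KO had none there. Wild-type coverage, in order of time, was 1080, 1511, 1468, 2664, 592, 1550 and 938 bases. It was thus the sole marked block of the Cacna1s window at -24, 0 and 6 h. Its region chr1:138023740-138026981 had a peak in each of the 12 libraries, as 7.69% of all regions did. The 48 h wild-type peak in it, chr1:138023771-138025009, was the widest of the window at 1239 bases, with a fold of 7.42. The strongest summits of the 6 libraries at 48 h lay within 382 bases. Coverage of the block was 773 bases in Myod1_KO, 800 in H3_KO, 1199 in H1_KO, 3084 in H34_KO and 5062 in H23_KO. Block 3, chr1:138015544-138016934, had peaks at 12 h, in H23_KO and in H34_KO.

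Regions marked at 48 and 72 h but not at -24 or 0 h, whatever the 24 h list held, numbered 1 of 13 at Ryr1 and 3 of 13 at Cacna1s, against 2.46% of all wild-type regions. Neither window held an early-lost region, marked at -24 and 0 h but at none of 24, 48 and 72 h, a class of 3.48% of all wild-type regions. Of these 26 regions, merged from the 7 wild-type lists alone, 1 was marked at all 7 times, in Cacna1s block 4, against 16.8% of all wild-type regions. Block 2 at Ryr1 had a peak at every time too, but its wild-type peaks did not merge into 1 region. Peaks joined over the gaps customary for super-enhancer calls gave 33 domains at Ryr1 and 22 at Cacna1s over the 12 libraries. None at Ryr1 was a large domain, defined as for super-enhancers by the point of slope 1 on the ranked curve of width times fold or score. At Cacna1s 1 was, in H23_KO, with 13 peaks over 23.9 kb, chr1:138015544-138039493, which runs beyond the window. The domain at this edge ran beyond the window in all 12 libraries. At -24 h it spanned chr1:138023181-138037376 with 9 peaks. Of all domains of the 12 lists 4.51% were large, so 1 of 22 is near the background and is not a result about Cacna1s.

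**Figure D3:**
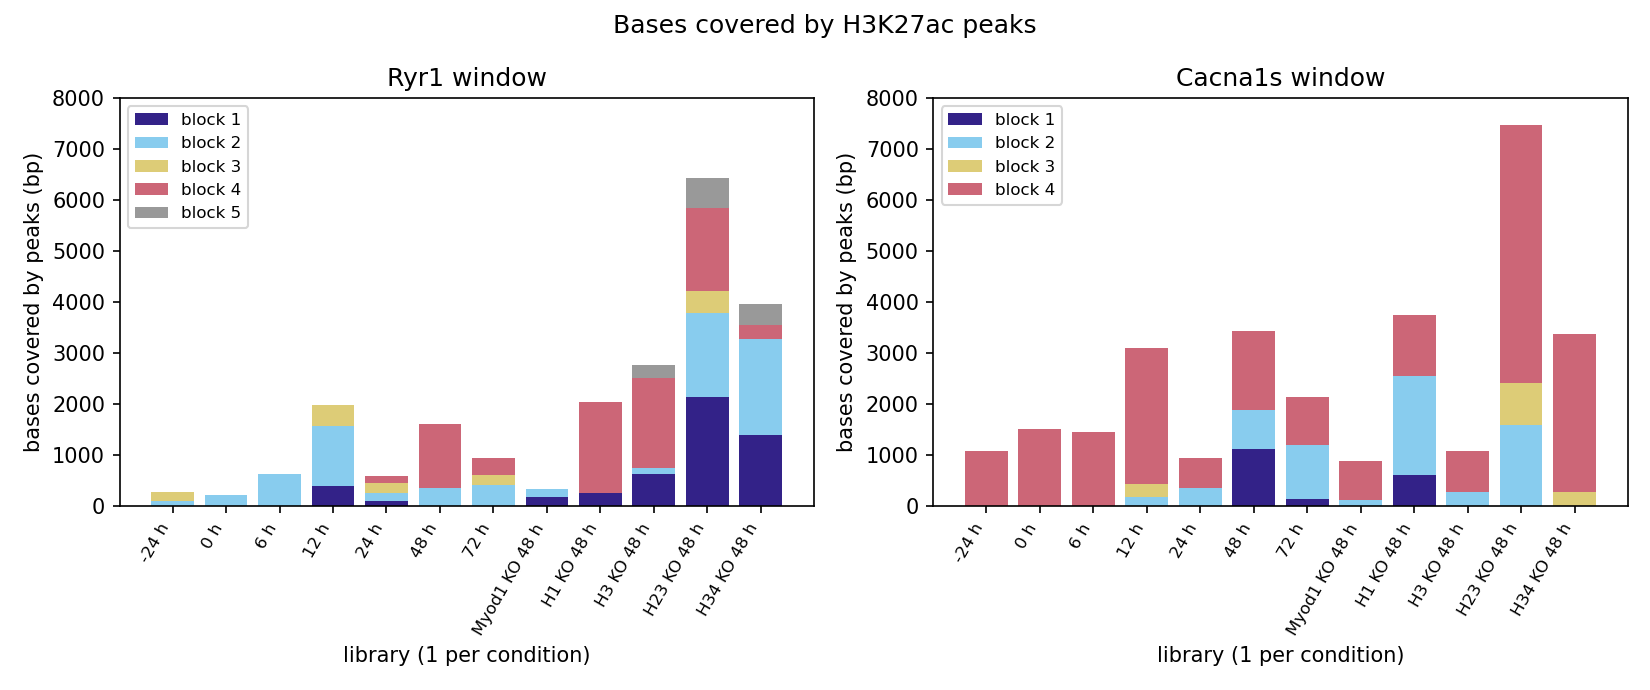
Bases covered by peaks (vertical axis, bp) in each of the 12 libraries, stacked by block, for Ryr1 (left) and Cacna1s (right). At Ryr1 block 4 makes up most of the wild-type 48 h bar, 1243 of 1608 bases, and is missing in Myod1_KO; at Cacna1s blocks 1 and 2 are small or missing in Myod1_KO, H3_KO and H34_KO.

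The edited lines were compared with wild-type cells at 48 h over the whole windows. Myod1_KO had 2 peaks covering 340 bases at Ryr1 and 4 covering 898 at Cacna1s, the fewest bases of the 6 libraries at 48 h in both windows. Its list was also the shortest, at 55585 peaks. Per Mb of listed peaks, Ryr1 had 18.6 bases in Myod1_KO against 35.4 in wild-type cells, and Cacna1s had 49.0 against 75.6. By this measure Myod1_KO was still lowest at Ryr1, but at Cacna1s H3_KO and H34_KO lay below it. The Cacna1s values include block 4, at the edge next to Kif21b. It held 773 of the 898 bases in Myod1_KO and 1550 of the 3433 in wild-type cells at 48 h. Of the stretches of the genome, 62.9% had fewer bases covered than Ryr1 in Myod1_KO and 63.9% in wild-type cells at 48 h, and for Cacna1s these were 79.8% and 83.5%. Of the wild-type 48 h peaks, 1 of 3 at Ryr1 (33.3%, 95% Wilson interval 6.15 to 79.2) and 1 of 6 at Cacna1s (16.7%, 3.01 to 56.4) had a peak in Myod1_KO, against 42.5% of all wild-type 48 h peaks. Both intervals include that share, which with so few neighbouring peaks is a description and not a test. The Ryr1 value rests on the overlap of 16 bases in block 2 and was 0.0% when 50% of the shorter peak had to overlap. With equal numbers of strongest peaks it was 0 of 2. There the wild-type peak of block 2 had dropped out of its list, while the Myod1_KO peak stayed. With the window widened by 10 kb on each side the Ryr1 value was 3 of 5 (60%), above the share of all peaks. Its place relative to that share thus turned. At Cacna1s the value was 4 of 10 (40%), still below.

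The hotspot lists held more peaks than the wild-type list and reached down to a −log10 p of 3.01 to 3.03, against 4.13 in wild-type cells. At Ryr1, H1_KO had 4 peaks covering 2048 bases, H3_KO 8 covering 2776, H34_KO 7 covering 3966 and H23_KO 9 covering 6433, all above the 1608 of wild-type cells. Per Mb of listed peaks the values were 29.0 in H1_KO, 47.5 in H3_KO, 54.3 in H34_KO and 78.9 in H23_KO, so H1_KO then lay below wild type. At Cacna1s, H3_KO had 4 peaks covering 1089 bases, H34_KO 8 covering 3371, H1_KO 12 covering 3754 and H23_KO 14 covering 7477, against 3433 in wild-type cells. Per Mb these were 18.6 in H3_KO, 46.2 in H34_KO, 53.2 in H1_KO and 91.8 in H23_KO. The H3_KO line was thus below wild type at Cacna1s and above it at Ryr1 on both measures, and H23_KO was above it in both windows. Much of the Cacna1s coverage lay in block 4, at the edge next to Kif21b. This block held 800 of the 1089 bases in H3_KO, 3084 of 3371 in H34_KO, 1199 of 3754 in H1_KO and 5062 of 7477 in H23_KO. In wild-type cells at 48 h it held 1550 of 3433.

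Peak by peak, the lines also differed. H1_KO had a peak at 2 of 3 wild-type 48 h peaks at Ryr1 (66.7%, 20.8 to 93.9) and at 6 of 6 at Cacna1s (100.0%, 61.0 to 100.0), against 83.8% of all wild-type peaks. H3_KO had one at 3 of 3 (100.0%, 43.9 to 100.0) and at 2 of 6 (33.3%, 9.68 to 70.0), against 74.0%. H23_KO had one at 3 of 3 (100.0%, 43.9 to 100.0) and at 4 of 6 (66.7%, 30.0 to 90.3), against 81.8%. H34_KO had one at 2 of 3 (66.7%, 20.8 to 93.9) and at 2 of 6 (33.3%, 9.68 to 70.0), against 82.0%. At Ryr1 every interval includes the share of all peaks. At Cacna1s the intervals of H3_KO and H34_KO lie below it, but with 6 neighbouring peaks of 1 library, which are not independent, this is a description and not a test. With the window widened by 10 kb on each side, both lines had a peak at 6 of 10 (60%). With the 71281 strongest peaks of both lists H1_KO had one at 3 of 6 (50%) at Cacna1s. When 50% of the shorter peak had to overlap, H1_KO had one at 4 of 6 (66.7%) there. Its smallest overlaps were 41 and 82 bases.

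**Figure D4:**
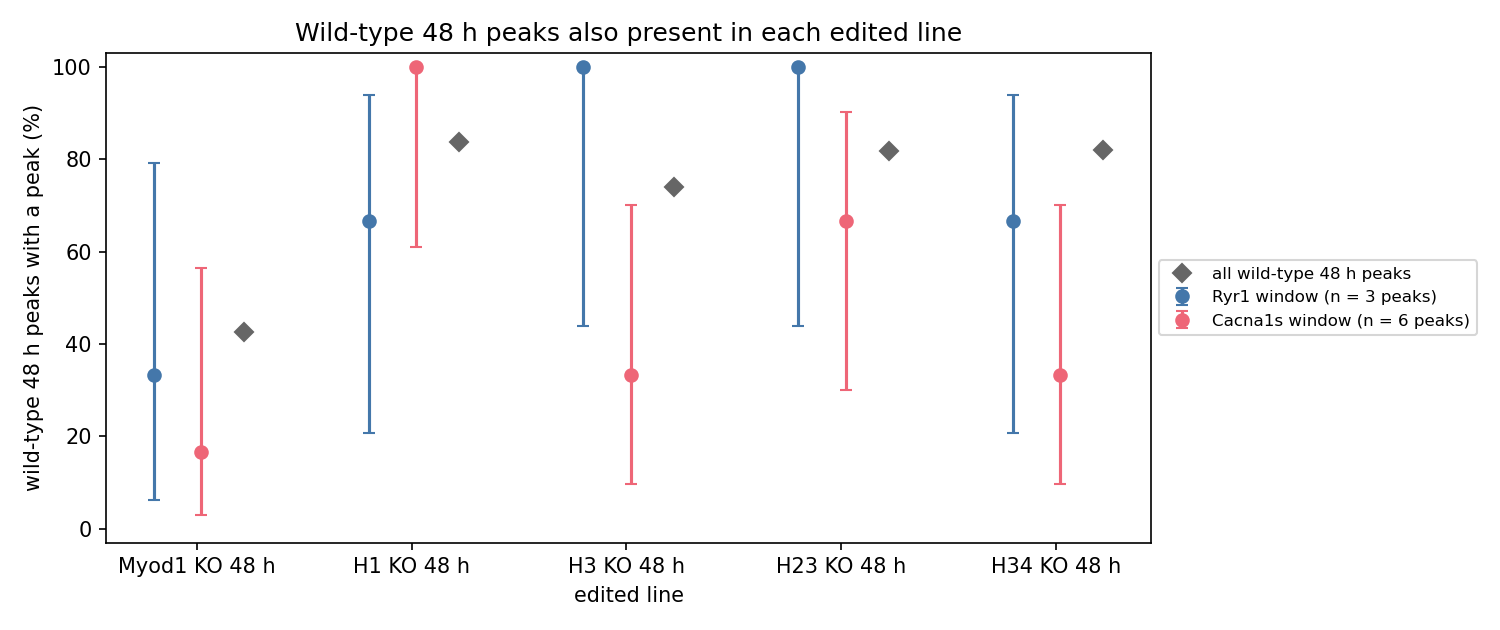
Percentage of wild-type 48 h peaks that had a peak in each edited line (horizontal axis), for the 3 peaks at Ryr1 (blue) and the 6 at Cacna1s (red) with 95% Wilson intervals, and for all 71281 wild-type 48 h peaks (grey diamonds). The Cacna1s points of H3_KO and H34_KO, both at 33.3%, sit below the diamonds at 74.0% and 82.0%.

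Of the 28 regions, 8 had a wild-type 48 h peak, and 6 of these had none in Myod1_KO, against 53.3% of all such regions. All 8 had a peak in at least 1 edited line, while 6.16% of such regions had none in any. Of the 28, 4 had a peak in all 4 hotspot lines, against 18.9% of all regions. A further 11 regions had no wild-type peak at any time, where the share over all regions was 52.1%, and 10 had a peak in a single library, against 47.0%. Myod1_KO had a peak in 5 of the 28 regions, against 14.8% of all regions, and in 3 of the 28 it had one where wild-type cells at 48 h had none, against 3.6%. In these 3 regions the Myod1_KO peaks were weak, ranking above 2.19% to 11.6% of their list. Those in block 1 at Ryr1 and block 4 at Cacna1s lay in regions with wild-type peaks at other times.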

How the data were processed

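H3K27ac ChIP-seq peak lists of 12 C2C12 libraries were used; the labels describe 13 samples. MACS2 2.1.0 and build mm9 are named in the submitters' processing notes; aligner, filters, control library, cutoffs and read depth are not given in the sources used here. The 6 lists at -24, 0, 6, 12, 24 and 72 h were deposited with a score of unstated unit. The 6 lists at 48 h were deposited with a score, the fold enrichment (a ratio) at the summit, −log10 p-value and −log10 q-value per peak. These are the authors' own values and were used to describe, rank or filter peaks within a list. Format and time cannot be told apart for the wild-type 48 h list.

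Positions were converted to count from 1. An overlap of 1 base made peaks shared, and overlapping peaks of the lists compared were merged into regions. Stretches used for comparison were consecutive and did not overlap; a peak was put in the stretch of its midpoint. Regions named were the 5 widest wild-type 48 h peaks of each window and the regions present in all 12 libraries, late-gained, early-lost, marked in wild type and H1_KO but in no line without H3, or missing from all edited lines. Other regions and the blocks were chosen after their values were seen. The members, lists and comparisons were chosen with earlier results of these data known. Shares carry 95% Wilson intervals. The overlap code was checked on simulated peaks. Alternatives were another overlap, stricter peaks, lists of equal length, wider windows, other merging and a time point left out. Equal lists held 55585 peaks for counts, coverage and blocks, and 69251 for the first time, late-gained and early-lost regions. For shares, both lists were cut to the length of the shorter, 71281 for the hotspot lines and 55585 for Myod1_KO. Tools were pandas 2.3.3, numpy 2.4.6, matplotlib 3.10.9 and Python 3.11.15. A planned list of coupling genes was not run, since it needs an mm9 annotation.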

Additional observations from a re-analysis of the deposited data

How the results depend on the processing

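No paired analysis was possible because each condition had 1 library. Of 66 alternatives to the 16 main results, 60 left the value as it was or within its interval and 6 moved it. Some of the 60 could not have moved it. A −log10 p of at least 4 removed no peak from the wild-type 48 h and Myod1_KO lists, whose lowest values were 4.13 and 4.02. Counting every peak that overlaps the window could not change a first time of -24 h, the earliest library. The share of Ryr1 wild-type 48 h peaks with a Myod1_KO peak went from 33.3% to 0.0% with a 50% overlap. With equal numbers of strongest peaks it went to 0.0% of the 2 wild-type peaks left. The Cacna1s share in H1_KO went from 100.0% to 50% with equal numbers, which for the shares of the hotspot lines meant 71281 peaks per list. Late-gained regions at Ryr1 went from 0 to 1 with peaks within 1 kb merged and to 1 without the 24 h list, and at Cacna1s from 1 to 3 without the 24 h list. Within the wide intervals, some shares still moved by over 1.5 times: Ryr1 in H34_KO to 33.3% with equal numbers, and, with wider windows, Myod1_KO to 60% at Ryr1, which put it above the share of all peaks, and 40% at Cacna1s, and H3_KO and H34_KO to 60% at Cacna1s. The first time with a peak, and the absence of early-lost regions, did not change under the alternatives run. Of 72 alternatives to the 48 counts and coverages per library, 23 moved, all with 55585 peaks per list, which leaves fewer peaks by construction; Ryr1 then had 0 peaks at 0 h. Coverage per block, tried with that number of peaks after the data were seen, moved in 24 of 59 blocks and libraries with a peak. The cause of the other changes was not tested. Each result rests on 1 library, and read depth is unknown, so weak peaks may be missing from a list.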
